A study of Mus musculus with 12 samples.

Results

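Conventional dendritic cells (cDCs) of the spleen fall into 2 subsets, and the comparison described here sets cDC1 against cDC2 within the M-cDCs of a mouse study. It rests on 6 of the 12 libraries of the series, 3 of M-cDC1 and 3 of M-cDC2, and on the 12434 of 55322 listed genes that reached 1 FPKM or more in 3 or more of the 12 libraries. FPKM is a read count divided by the length of the gene and by the depth of the library. The other 6 libraries, 3 of L-cDC1 and 3 of L-cDC2, served to estimate the spread of each gene and to ask where the subset difference departs between M and L. All 12 samples came from spleen, were called conventional dendritic cells and carry the genotype Il7r-cre; Rosa26-lsl-tdTomato in the labels, whereas the growth protocol speaks of WT C57BL/6J animals aged 7 to 8 weeks. With such alleles a cell that once expressed Il7r, or descends from one that did, becomes fluorescent for good. The labels neither spell out the letters L and M nor tell whether the reporter was used to sort any library, and nothing in them assigns a replicate to an animal, so the p-values measure the spread between these libraries, which may be technical. In bulk RNA, fewer cells of a type and less RNA per cell cannot be told apart.

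Both subsets take up antigen and show it to T cells on MHC molecules. The cDC1 subset depends on the transcription factors Irf8 and Batf3, takes up dying cells and is known for passing their antigens to MHC class I, a route called cross-presentation that primes CD8 T cells. The cDC2 subset depends more on Irf4, Zeb2 and Notch signals and is known for presenting antigen on MHC class II to CD4 T cells.

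The M libraries held 15879864 to 24498235 reads, recovered from the steps of the FPKM values, so that 3 reads on a gene of 1 kb are worth 0.122 to 0.189 FPKM. Across genes, log2 values correlated at 0.968 to 0.979 between replicates and at 0.851 to 0.862 between M-cDC1 and M-cDC2. The labels were borne out by the markers of each subset. Summed over 8 cDC1 markers the M-cDC1 libraries held 1376 to 1383 FPKM and the M-cDC2 libraries 80.8 to 84.2, and summed over 8 cDC2 markers they held 14.4 to 14.9 and 881 to 1012. Markers of other cells were not level between the groups. The 9 erythroid and platelet markers summed to 22.4 to 24.2 FPKM in M-cDC1 against 0.706 to 6.22 in M-cDC2, with Pf4 and Ppbp at 0 in M-cDC1, and 4 of the 4 that could be tested were higher in M-cDC1. The 12 monocyte and macrophage markers summed to 452 to 521 FPKM in M-cDC1 against 1028 to 1236 in M-cDC2, with 3 higher and 6 lower of 10 tested and Fcgr1 at 0 in M-cDC1, and the larger share of both sums came from Lyz2. The 8 B cell markers summed to 304 to 352 and 349 to 375, nearly all from Ighm, with Pax5 at 0 in all 6 and 1 higher and 1 lower of 6 tested. The 8 T and NK cell markers summed to at most 0.326 and 1.17, 6 neutrophil markers to at most 2.03 and 0.71, and 4 plasma cell markers to at most 0.318 and 0.05004. None of the 9 of these that could be tested was called, but 0 of them passed the filter within the M libraries, so the lack of a call says little. The 8 pDC markers summed to 60.8 to 72.6 and 40.5 to 45.5, largely from Bst2, with 2 higher and 1 lower of 4 tested. The 5 stromal and endothelial markers summed to 12.7 to 12.96 and 18.4 to 20.01, nearly all from Pecam1, the 1 tested and lower. The 6 markers of mature migratory DCs summed to 54.9 to 81.6 and 84.9 to 108 (1 higher and 2 lower of 5 tested), and 2 of 4 genes common to cDCs were higher and 1 lower. The part of these cells in the results was not tested.

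Of the 12434 genes, 4736 differed between M-cDC1 and M-cDC2 (38.1%, limma adjusted p under 0.05), 1573 higher in M-cDC1 (12.7%) and 3163 lower (25.4%). Median-of-ratios scaling, which multiplies each library so that the typical gene has the same level in all, left 4445 (35.7%), split almost evenly into 2176 higher (17.5%) and 2269 lower (18.2%). The scaling moved the median log2 difference over all genes from -0.18 to -0.03. It kept all 1573 genes called higher and added 603, and it kept 2269 of the 3163 called lower and let 894 go, while 0 genes turned direction. The factors by which libraries were divided were 0.907 to 0.956 in M-cDC1 and 1.068 to 1.078 in M-cDC2. The scaling thus shifted genes toward M-cDC1, so calls toward M-cDC1 could hardly be lost, and keeping them does not make them firmer. The 894 calls toward M-cDC2 rest on the deposited scale, and the 603 added calls toward M-cDC1 rest on the scaling. Differences, given in parentheses after the levels of a gene, are log2(FPKM + 1) of M-cDC1 minus M-cDC2, a scale on which genes at low levels appear to differ less than they do, and where a group lies near 0 the value depends on the added 1 and is no bound. The groups did not overlap in 6352 genes (51.1%). With 3 libraries a group the smallest two-sided p that an exact permutation test can give is 0.1, and all adjusted p values come from limma.

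**Figure D1:**
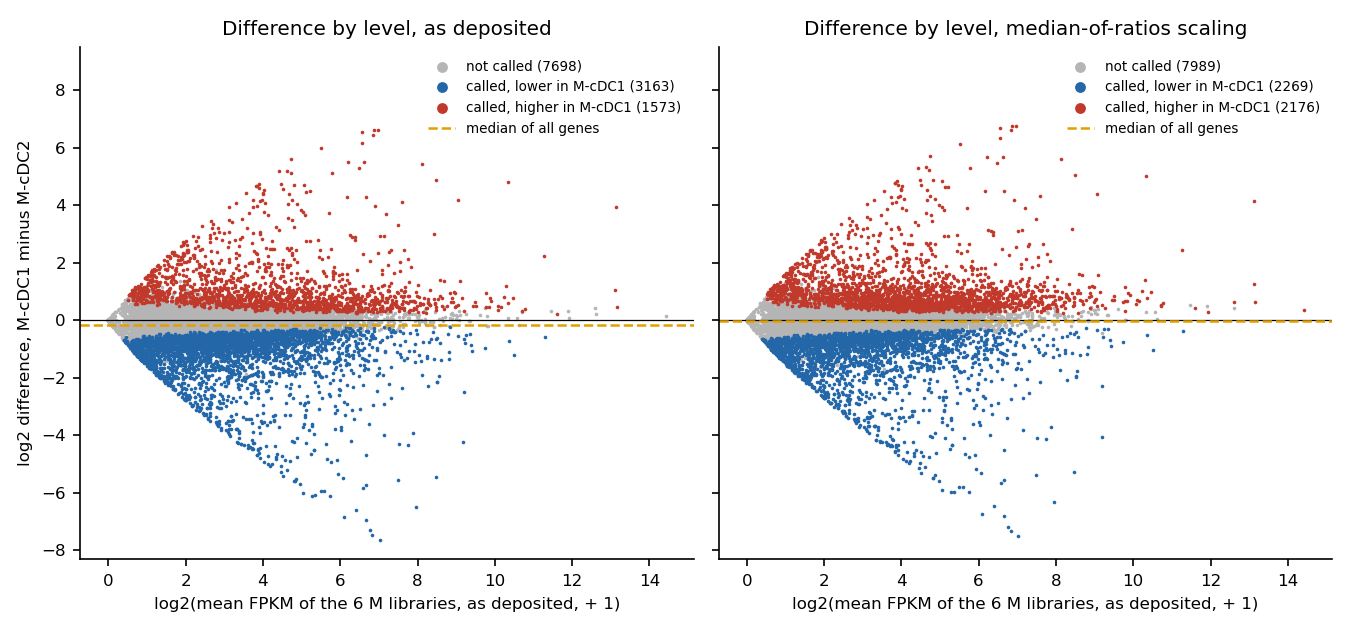
Each point is 1 of 12434 genes, with the log2 mean level in the 6 M libraries on the horizontal axis and the log2 difference, M-cDC1 minus M-cDC2, on the vertical axis, as deposited (left) and after median-of-ratios scaling (right). The dashed line is the median of all genes, at -0.18 on the left and -0.03 on the right. Red points are called higher (1573 and 2176) and blue points lower in M-cDC1 (3163 and 2269).

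The direction depended on the level of the gene. Among 4450 genes with a mean of 1 to 5 FPKM in the M libraries, 329 were called higher and 1055 lower, with a median of -0.24 (-0.11 after scaling). Among 479 genes at 100 FPKM or more, 216 were higher and 113 lower, with a median of 0.24 (0.44 after scaling). The reads were correspondingly more concentrated in M-cDC1. The 100 most highly sequenced genes took 30.9%, 32.1% and 31% of the reads in the 3 M-cDC1 libraries and 24.1%, 23.4% and 23.2% in the M-cDC2 libraries, with no overlap. Fewer genes reached 1 FPKM in M-cDC1 (10549, 10394 and 10440) than in M-cDC2 (11291, 11264 and 11111). The genes called higher held 39.4% to 40.7% of the reads in M-cDC1 and 19.8% to 20.5% in M-cDC2. Those called lower held 15.8% to 16.8% in M-cDC1 and 35.4% to 35.8% in M-cDC2. Both contrasts follow from the calls, which were made on these libraries, and say nothing about concentration.

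Large differences were fewer and less dependent on scaling. At a log2 difference of 2 or more, 199 genes were higher and 391 lower (231 and 348 after scaling), and at 4 or more, 44 and 80 (50 and 76). A single gene can weigh heavily: Cst3, which encodes cystatin C, a secreted inhibitor of cathepsins, took 1.98%, 2.35% and 2.06% of all reads in M-cDC1. Its log2 difference was 3.94 (SE 0.133, 4.14 after scaling), from a level of 1104 ± 215 FPKM in M-cDC2. Ppt1, a lysosomal enzyme that removes fatty acids from proteins, stood at 2491 ± 19.3 FPKM against 88.3 ± 7.21 (SD, n = 3 each, 4.81). Cd74, the invariant chain of MHC class II, had the highest level in both subsets and was called after scaling but not before (0.16, adjusted p = 0.18; 0.36 and 0.0146 after scaling).

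The largest differences toward M-cDC1 included several receptors and membrane proteins. Gpr141b, an orphan G protein-coupled receptor, stood at 251, 256 and 188 FPKM in the M-cDC1 libraries and 1.27, 1.55 and 1.29 in the M-cDC2 libraries (6.6, SE 0.152, adjusted p = 1.96e-12). Cd36, a scavenger receptor that binds lipids and dying cells, stood at 187, 185 and 184 against 1.36, 1.6 and 1.81 (6.17, SE 0.255, adjusted p = 2.85e-10). Plpp1, a phosphatase of lipid phosphates at the cell surface, stood at 87.6, 78.7 and 99.3 against 0.303, 0.396 and 0.531 (5.99, SE 0.158). In each of these the lowest M-cDC1 library lay far above the highest M-cDC2 library. Rab7b, a small GTPase of endosome traffic, reached 192 ± 9.06 FPKM in M-cDC1 against 3.45 ± 1.91 in M-cDC2 (5.52), with M-cDC2 replicate 1 the highest of its group at 5.65. Ifi205, a member of the interferon-inducible Ifi200 family, reached 174 ± 34.5 and 3.51 ± 0.98 (5.28), and Ttc39a 47.3 ± 5.39 and 0.312 ± 0.131 (5.2).

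Toward M-cDC2 the largest differences included receptors of myeloid cells. Sirpb1a, a member of the signal regulatory protein family, stood at 0.311, 0.342 and 0.219 FPKM in M-cDC1 against 217, 220.3 and 239 in M-cDC2 (-7.46, SE 0.129, adjusted p = 2.67e-13). Clec4a4, a C-type lectin with an inhibitory tail, stood at 0.459, 0.216 and 0.293 against 260.5, 234 and 283 (-7.62, SE 0.153, adjusted p = 4.95e-13). Bex6 stood at 1.31, 3.35 and 2.63 against 198, 195 and 168 (-5.82). No M-cDC1 library came near the M-cDC2 range in any of them. S100a4, a calcium-binding protein, reached 0.154 ± 0.152 against 60.5 ± 18.8 FPKM (-5.69). Ifitm1, a membrane protein induced by interferon, varied among the M-cDC2 libraries, at 49.9, 149.5 and 65.4 FPKM with replicate 2 well above the others, and stood at 0.611, 0.0511 and 0.333 in M-cDC1 (-5.93). Under median-of-ratios scaling the 24 genes plotted below kept their direction and their call.

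**Figure D2:**
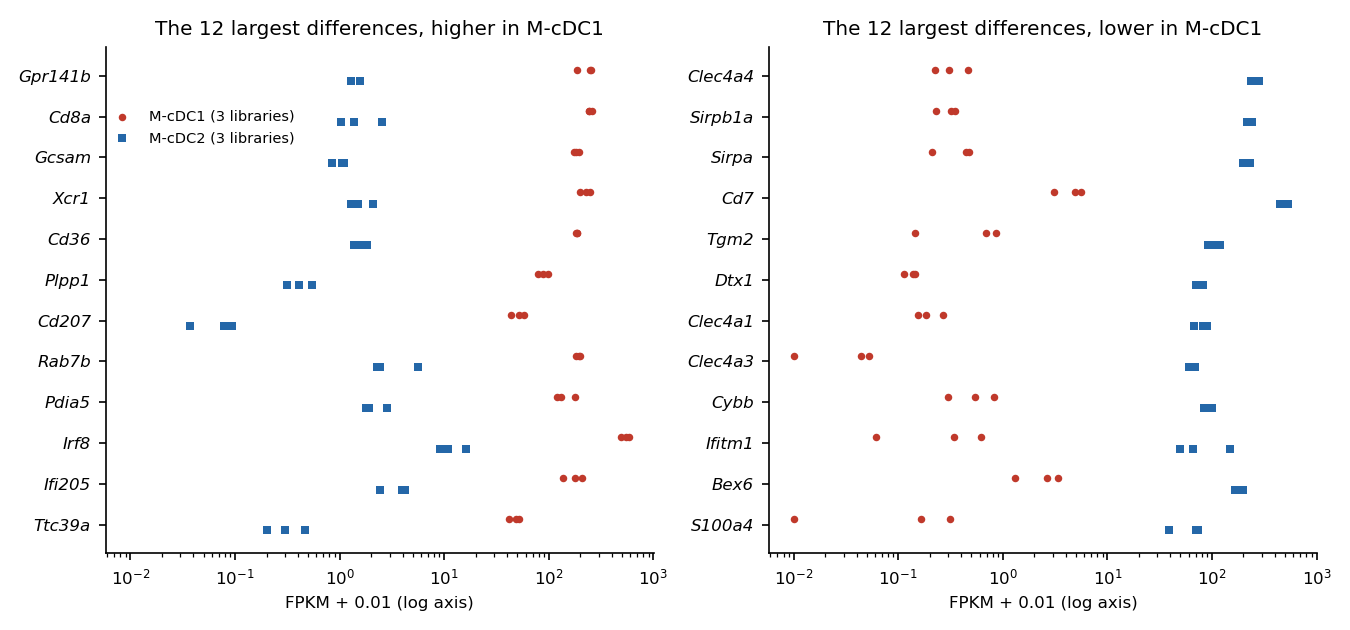
FPKM of the 12 largest differences in each direction among genes named by rule, 1 row per gene, with 0.01 added so that listed zeros can be drawn on the log axis. That rule leaves out unnamed gene models, some of which differed by more, such as Gm15925 (-6.85) and Gm9733 (-6.61). Red circles are the 3 M-cDC1 libraries and blue squares the 3 M-cDC2 libraries. The 2 groups lie apart in every row, and the genes on the right stay under 6 FPKM in M-cDC1 while they reach 38.9 to 528 in M-cDC2.

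The counts below are of 33 lists of genes by function. Of their 1153 entries found among the listed genes, 773 passed the filter, 745 of them within the M libraries alone, and a gene that passes only through the subset where it is high is bound to differ, so the counts describe the genes that passed. Each count stands beside 12.7% of all genes higher and 25.4% lower, with a median of -0.18, as deposited, and beside 17.5%, 18.2% and -0.03 after scaling.

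Transcription factors that steer blood cell fates were mostly lower in M-cDC1. Of 42 tested, 5 were higher and 27 lower, with a median of -0.70 (6 and 21, and -0.52, after scaling), beside 12.7% and 25.4% of all genes. The 5 higher were Irf8, Mycl, Id2, Batf3 and Zfp366. Id2, an inhibitor of E proteins, stood at 559, 634 and 483 FPKM in M-cDC1 against 176, 229 and 230.0 in M-cDC2 (1.4, SE 0.148, adjusted p = 4.66e-06). Mycl, a Myc family factor active in cDC1, stood at 103, 78.7 and 103 against 29.1, 37.9 and 37.4 (1.42, adjusted p = 1.12e-06). These differences are modest beside that of Irf8 at 5.42. Spib, an Ets factor, stood at 0.419, 0.254 and 0.159 in M-cDC1 and 46.4, 46.8 and 33.3 in M-cDC2 (-5.07, SE 0.285), and Bhlhe40, a repressor of the basic helix-loop-helix class, at 1.34, 0.987 and 1.01 and 63.7, 57.5 and 47.1 (-4.75). Relb, a subunit of the alternative NF-kB pathway, was at 25.1 and 202 FPKM (-2.94) and Runx3 at 8.40 and 32.6 (-1.84). Zeb2, a repressor needed for cDC2, was under 0.06 FPKM in each M-cDC1 library and at 6.34, 5.77 and 6.16 in M-cDC2 (-2.78), and Klf4, needed by a subset of cDC2, was nearer, at 3.33, 3.56 and 2.57 against 12.3, 14.3 and 8.22 (-1.58).

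The Notch pathway changed at its receptors, modifiers and targets in both directions. Of 21 genes tested 5 were higher and 10 lower (23.8% and 47.6%, beside 12.7% and 25.4% of all genes), median -0.44. After scaling 6 and 7 were called (28.6% and 33.3%, beside 17.5% and 18.2%), median -0.24. Dtx1, an E3 ligase gene switched on by Notch, stood at 0.135, 0.127 and 0.104 FPKM in M-cDC1 against 81.3, 75.1 and 70.7 in M-cDC2 (-6.09, SE 0.171, adjusted p = 7.88e-12). Hes1, a classical Notch target, stood at 7.06, 3.38 and 2.75 against 8.46, 16.8 and 14 (-1.42, adjusted p = 0.0018), with M-cDC1 replicate 1 and M-cDC2 replicate 1 close to each other. Notch4 went the other way, at 12.1, 6.12 and 6.25 against 0.359, 0.867 and 0.589 (2.46), and so did Dtx4, a relative of Dtx1, at 4.56 against 1.16 (1.38). The receptor Notch2 did not pass (-0.23, adjusted p = 0.257), nor, before scaling, did Rbpj, the DNA-binding partner of Notch (0.33, and 0.51 with adjusted p = 0.0184 after scaling).

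C-type lectins, which bind sugars or other ligands on microbes and cells, held the lowest median of the 33 functional gene lists described here, at -1.80 (-1.72 after scaling), with 7 of 27 higher and 18 lower under both scalings. Cd207 (langerin), a receptor that carries mannose-bearing ligands inward, stood at 43.2, 52.4 and 58 FPKM in M-cDC1 against 0.0268, 0.0828 and 0.0678 in M-cDC2 (5.61, SE 0.219, adjusted p = 1.62e-10). Ly75 (DEC-205), an endocytic receptor of cDC1, was at 21.9 against 2.54 FPKM (2.7). On the other side Clec7a (dectin-1), a receptor for fungal glucans, stood at 2.04, 1.31 and 1.02 against 31.3, 28.3 and 24 (-3.57), and Clec4n (dectin-2), which binds fungal mannans, at 0.365 against 17.7 (-3.79).

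One lectin ran against its neighbours. The Clec4 genes lie in a row on chromosome 6 (from 122898807 to 123223980, coordinates of the deposited table, for which the sources name no mouse build), and 6 of the 7 tested there were lower in M-cDC1: Clec4a1 (-6.08), Clec4a3 (-5.99), Clec4a4 (-7.62), Clec4b1 (-4.7), Clec4a2 (-4.51) and Clec4n (-3.79). Clec4b2, placed between Clec4a2 and Clec4n, was higher. It stood at 43.3, 49.3 and 29.8 FPKM in M-cDC1 against 0.0695, 0.322 and 0 in M-cDC2 (5.19, SE 0.186, adjusted p = 7.09e-11). Its paralog Clec4b1 stood at 0.398, 0.5 and 0 in M-cDC1 and 42, 30.8 and 26 in M-cDC2. Each of the 2 paralogs was thus near 0 in the subset where the other was high. Some of these genes are similar in sequence, and how reads shared between copies were counted is not stated.

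The promoters of this pair are shown because the paralogs lie on opposite sides of the comparison. The sequences are from RefSeq (build GRCm38.p6) and span 300 bases around the start of the gene, on the strand of the gene. Clec4b1 lies at chr6:123049712-123050011 (+) and Clec4b2 at chr6:123172773-123173072 (+). Capitals mark matches, on either strand, to the core of an interferon-stimulated response element (ISRE; GAAA, any 2 bases, GAAA) or to a composite ETS-IRF element (GGAA, any 2 bases, GAAA), and overlapping matches run together.
Clec4b1: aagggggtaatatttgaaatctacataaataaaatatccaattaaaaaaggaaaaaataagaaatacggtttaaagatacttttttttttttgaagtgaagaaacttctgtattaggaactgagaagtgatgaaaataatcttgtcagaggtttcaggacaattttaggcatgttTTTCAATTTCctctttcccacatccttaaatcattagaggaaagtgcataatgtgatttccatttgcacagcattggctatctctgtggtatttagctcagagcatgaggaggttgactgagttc
Clec4b2: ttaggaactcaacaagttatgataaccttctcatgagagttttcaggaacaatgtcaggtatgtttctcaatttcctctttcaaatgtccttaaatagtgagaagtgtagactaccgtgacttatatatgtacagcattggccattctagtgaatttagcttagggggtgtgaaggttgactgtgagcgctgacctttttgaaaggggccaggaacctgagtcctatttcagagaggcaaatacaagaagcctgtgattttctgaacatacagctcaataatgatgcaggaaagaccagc
Over the 188 columns of a local alignment, 137 bases (72.9%) were identical. The Clec4b1 window held 1 ISRE match and 0 ETS-IRF matches, and the Clec4b2 window held 0 of either. A match is a description of letters, not of a bound site.

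The same motifs were counted over all promoters. RefSeq windows were found for 8680 of the 12434 genes (10992 windows, several for some genes). The ISRE core was in 3.46% of these windows, in 4.61% of those of genes called higher and in 4.4% of those called lower, and ETS-IRF in 2.57%, 2.27% and 3.28%. Among genes that differed by 2 or more, the ISRE core was in 9.51% of 368 windows toward M-cDC2 and 5.7% of 193 windows toward M-cDC1. TGANTCA, the AP-1 site, was in 4.86% of all these windows, 9.24% of those lower by 2 or more and 11.4% of those higher by 2 or more, and TGTGGT, the RUNX core, in 12.9%, 19.6% and 19.7%. Both large classes were thus above the share of all tested genes for ISRE, AP-1 and RUNX, and for ETS-IRF the class toward M-cDC2 alone was (4.62%, against 2.07% toward M-cDC1). Over the whole RefSeq table of 32851 windows the shares were 3.44%, 2.72%, 7.81% and 16.8%, in the order ISRE, ETS-IRF, AP-1 and RUNX.

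Promoters of 4 further genes with large differences, chosen after their values and matches were seen, are given with the same capitals, 2 from each side. Sirpb1a lies at chr3:15426378-15426677 (-), Cybb at chrX:9469275-9469574 (-), Tlr11 at chr14:50357664-50357963 (+) and Gpr141b at chr13:19732902-19733201 (-).
Sirpb1a: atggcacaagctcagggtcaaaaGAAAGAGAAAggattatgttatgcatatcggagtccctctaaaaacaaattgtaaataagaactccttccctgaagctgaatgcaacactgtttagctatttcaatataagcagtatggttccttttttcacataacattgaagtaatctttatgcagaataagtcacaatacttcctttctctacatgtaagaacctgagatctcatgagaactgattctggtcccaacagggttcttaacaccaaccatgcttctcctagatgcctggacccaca
Cybb: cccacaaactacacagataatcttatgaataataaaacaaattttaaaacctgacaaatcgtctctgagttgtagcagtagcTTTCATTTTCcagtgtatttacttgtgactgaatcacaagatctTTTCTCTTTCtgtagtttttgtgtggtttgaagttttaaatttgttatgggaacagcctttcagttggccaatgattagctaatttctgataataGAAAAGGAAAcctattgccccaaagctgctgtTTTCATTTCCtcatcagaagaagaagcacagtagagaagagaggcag
Tlr11: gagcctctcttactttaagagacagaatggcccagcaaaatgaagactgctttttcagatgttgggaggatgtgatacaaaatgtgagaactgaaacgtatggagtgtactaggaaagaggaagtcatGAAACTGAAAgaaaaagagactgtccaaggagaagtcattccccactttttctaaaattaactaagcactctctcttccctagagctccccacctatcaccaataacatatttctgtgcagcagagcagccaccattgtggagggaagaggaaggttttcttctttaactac
Gpr141b: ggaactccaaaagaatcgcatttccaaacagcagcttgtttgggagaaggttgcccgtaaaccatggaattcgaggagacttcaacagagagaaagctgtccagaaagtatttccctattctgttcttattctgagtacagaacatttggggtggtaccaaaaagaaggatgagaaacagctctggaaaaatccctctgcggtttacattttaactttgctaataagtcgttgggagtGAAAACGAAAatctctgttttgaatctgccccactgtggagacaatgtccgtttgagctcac
The Cybb window held 3 ISRE matches and 1 ETS-IRF match, and the other windows 1 ISRE match each. Since these 4 genes were chosen after their matches were seen, matches on both sides were fixed by the choice and say nothing about other genes.

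Genes for the uptake of dead cells and cross-presentation had the highest median of the 33 lists, 0.76 (0.92 after scaling). Of 22 tested 13 were higher and 4 lower in M-cDC1 (13 and 1 after scaling). Besides Cd36 they included the adhesion molecule Cadm1, at 48.7, 49.2 and 52.7 FPKM against 0.228, 0.875 and 0.42 (5.11), and the dead-cell receptor Clec9a (5.13). Wdfy4, which cross-presentation of cell-bound antigen needs, was at 148 against 71.5 FPKM (1.02), the small GTPases Rab39 and Rab11a at 1.58 and 1.21, and Tap1 and Tap2, the transporter that carries peptides to MHC class I, at 1.18 and 0.99. Havcr2 (Tim-3), a checkpoint receptor, was at 327 against 166 (0.98). Lower in M-cDC1 was Lnpep, an endosomal peptide trimmer, at 4.17, 2.96 and 2.93 against 6.73, 6.51 and 7.09 (-0.85, adjusted p = 0.00143). Sec22b, Vamp8 and Rab27a were not called (-0.22, -0.10 and -0.03).

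Lysosomal proteases and their relatives were mostly lower in M-cDC1. Of 19 tested 3 were higher and 15 lower, with a median of -1.05 (3 and 13, -0.86, after scaling). The higher ones were the inhibitors Cst3 (3.94) and Cstb (0.59) and the protease Ctse (1.5). Ctsd, an aspartic protease, stood at 5.42, 6.52 and 6.8 FPKM in M-cDC1 against 45.8, 43 and 40 in M-cDC2 (-2.6, SE 0.126, adjusted p = 1.43e-09). Ctss, which trims the invariant chain, was at 579 against 1125 (-0.96), Ifi30, a reductase that opens disulfide bonds of antigens, at 215 against 568 (-1.39), and Lgmn, an asparagine endopeptidase, at 20.03 against 42.6 (-1.05). Ctsb was not called (-0.06). Cst7, another cystatin, went against Cst3, at 0.226, 0.0568 and 0 in M-cDC1 and 8.45, 13.3 and 16 in M-cDC2 (-3.6), so that the cystatins on chromosome 2 split between the subsets. Lamp1, a membrane protein of lysosomes, varied within both groups, at 12.5, 5.5 and 3.76 against 27.7, 69.7 and 78.4 (-2.86, SE 0.417). Many of these genes are also high in macrophages, and the monocyte and macrophage markers summed to 452 to 521 FPKM in M-cDC1 against 1028 to 1236 in M-cDC2. The larger share of both sums came from Lyz2, and of 10 such markers tested 3 were higher and 6 lower in M-cDC1. That the level of these markers bears on the differences of the protease list was not tested.

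Subunits of the vacuolar ATPase, which acidifies endosomes, numbered 4 of 17 higher and 2 lower (23.5% and 11.8%, beside 12.7% and 25.4% of all genes), median 0.03. After scaling the counts were 6 and 1 (35.3% and 5.88%, beside 17.5% and 18.2%), median 0.23. Atp6v0a2 was among the 4 higher, at 51.8, 49.4 and 58.7 FPKM against 14.7, 15.7 and 16.4 (1.71). The NADPH oxidase, which makes superoxide and by consuming protons keeps phagosomes less acidic, was lower in M-cDC1 in 6 of its 7 genes (5 after scaling), with a median of -1.29 (-1.09). Cybb (gp91phox), its catalytic chain, stood at 0.537, 0.289 and 0.816 in M-cDC1 and 101, 83.8 and 95.5 in M-cDC2 (-5.94, SE 0.304, adjusted p = 2.64e-09). Its partner Cyba was high in both subsets, at 498 against 712 (-0.52). Ncf4, a cytosolic subunit, was not called (-0.18). Hvcn1, the proton channel that accompanies the oxidase, was lower as well, at 0.188, 0.911 and 0.639 against 15.9, 15.8 and 17 (-3.47).

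Genes of protein folding and export in the endoplasmic reticulum had the highest share of members toward M-cDC1 among the 33 lists. Of 31 tested 22 were higher and 3 lower, median 0.68 (26 and 1, 0.88, after scaling). Pdia5, a disulfide isomerase, stood apart at 132, 121 and 179 FPKM in M-cDC1 against 2.83, 1.77 and 1.88 in M-cDC2 (5.51, SE 0.188, adjusted p = 4.62e-11). The chaperone Hsp90b1, which folds Toll-like receptors and integrins, stood at 245, 218 and 210.5 against 87.4, 83.9 and 103 (1.29). Hspa5 (BiP) was at 591 against 351 (0.76), Calr at 238 against 123 (0.95) and the factor Xbp1, which induces such genes, at 104 against 71.9 (0.52). Ssr1, a translocon subunit, was lower (-0.59, adjusted p = 0.00206), although Ssr2, Ssr3 and Ssr4 were higher (0.57, 1.0 and 0.68).

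Toll-like receptors went both ways. Of 26 receptors and adaptors 3 were higher (11.5%, near the 12.7% of all genes) and 11 lower (42.3%, beside 25.4%), and the median of -0.18 was that of all genes. After scaling 6 and 10 were called (23.1% and 38.5%, beside 17.5% and 18.2%), median 0.01. The 3 higher were Tlr3, Tlr11 and Tlr12, of which Tlr11 and Tlr12 detect profilin of protozoa. Tlr11 stood at 203, 171 and 199 FPKM in M-cDC1 against 6.25, 9.39 and 11.5 in M-cDC2 (4.29, SE 0.17, adjusted p = 1.84e-10), and Tlr12 at 44, 53.2 and 62.4 against 0.784, 1.15 and 1.22 (4.72). Tlr7, a sensor of single-stranded RNA, stood at 0, 0.0685 and 0.0335 against 16.1, 11.6 and 18.4 (-3.96), Tlr1, which pairs with Tlr2 for lipopeptides, at 2.56, 1.72 and 2.46 against 57.6, 48.3 and 57.1 (-4.1), and Tlr5, the flagellin receptor, at 0.0166 against 6.96 (-2.97). Tlr2, Tlr4, Tlr9 and Tlr13 were not called. Unc93b1, which carries the endosomal receptors to their place, was high in both at 480 and 472 FPKM and not called (0.03). Ticam2, an adaptor of Tlr4, stood at 0.161, 0.348 and 0.55 against 17.5, 16.3 and 19.1 (-3.79).

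Cytosolic sensors were lower in M-cDC1 in 15 of 24 genes and higher in 1, median -0.81 (13 and 1, -0.61, after scaling). Ddx58 (RIG-I), which detects viral RNA ends, stood at 0.139, 0.0635 and 0.252 FPKM against 16.4, 17.9 and 21.4 (-4.08, SE 0.177, adjusted p = 4.41e-10). The other RNA helicase, Ifih1, was at 2.41 against 10.3 (-1.73), Sting1, which relays DNA sensing, at 26.4 against 87.5 (-1.69), and Nod1, a sensor of bacterial wall fragments, at 13.5 against 70.6 (-2.3). Nlrc4, the scaffold of a flagellin inflammasome, stood at 1.46, 1.3 and 0.701 against 12.5, 12.6 and 11.3 (-2.62). Mavs, the adaptor below both helicases, was not called (-0.02). The 1 gene higher in M-cDC1 was Nlrc5, an activator of MHC class I genes (0.55, adjusted p = 0.0394). Its call was lost on leaving out replicate 1 or 3 of M-cDC1 (adjusted p = 0.119 and 0.14) or of M-cDC2 (0.0798 and 0.128), without the filter (0.11), and, by a narrow margin, with the M libraries alone or with a replicate block (0.0506).

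Signals that cDCs send to lymphocytes differed gene by gene. Among 20 cytokine genes 2 were higher and 12 lower, median -1.02 (3 and 11, -0.87, after scaling). The higher ones were Il12b, the p40 chain that drives type 1 T cell responses, at 16.9, 15.9 and 15.5 FPKM against 2.72, 2.31 and 2.68 (2.26, SE 0.162), and Il15, a growth factor of NK and memory CD8 T cells, at 15.5, 17.9 and 12.5 against 3.23, 3.96 and 2.76 (1.91). Ltb, a membrane lymphotoxin, stood at 16.1, 18.2 and 24.1 in M-cDC1 and 342, 478 and 402 in M-cDC2 (-4.32), and Il1b, an inflammatory cytokine, at 44.5, 30.1 and 25.8 against 183, 140.0 and 151 (-2.23). Il18 was not called (0.09).

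Chemokine genes split evenly, 4 of 12 higher and 4 lower under both scalings. Cxcl9, a ligand of Cxcr3, stood at 59.7, 66.8 and 48.2 FPKM in M-cDC1 against 2.53, 3.84 and 3.1 in M-cDC2 (3.83, SE 0.231), and Cxcl16 at 73.7, 72.7 and 66.2 against 23.6, 22.3 and 20.2 (1.64). Ccl5 stood at 27.6, 24.9 and 29.8 against 322, 576 and 427 (-3.92) and Ccl3 at 2.38, 6.21 and 3.21 against 84.4, 48.2 and 88 (-3.94), both chemokines of inflammation. Cxcl9 and its neighbour Cxcl10 thus lay toward M-cDC1, and the 4 called Ccl genes on chromosome 11 (Ccl3, Ccl4, Ccl5 and Ccl9) toward M-cDC2.

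Surface molecules that meet T cells also went both ways, with 6 of 33 higher and 15 lower, median -0.42 (10 and 15, -0.33, after scaling). Btla, an inhibitory receptor that binds Hvem, stood at 262, 231 and 192 FPKM in M-cDC1 against 38.2, 21.2 and 29.9 in M-cDC2 (2.92). Cd24a, a heavily glycosylated surface protein, stood at 138, 147 and 125 against 7.53, 5.69 and 4.96 (4.3), and Cd86, a ligand of Cd28, at 176 against 41.7 (2.06). The other Cd28 ligand, Cd80, was lower in M-cDC1, at 10.6 against 20.7 (-0.92). Both ligands of Pd-1 were lower: Cd274 (Pd-l1) at 3.53, 4.74 and 3.28 against 67.2, 72 and 61.7 (-3.82) and Pdcd1lg2 (Pd-l2) at 0.341, 0.0285 and 0.116 against 31.6, 31.6 and 20.1 (-4.61). Cd4, which some splenic cDC2 carry, stood at 2.36, 1.6 and 3.26 against 76.8, 71.8 and 77.7 (-4.52). Cd48 and Icam1 were not called under either scaling, and Cd83 passed after scaling only (adjusted p = 0.00528, 0.42).

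Receptors that place cells in tissue differed in both directions. Of 13 chemokine receptors 4 were higher and 5 lower under both scalings. Cxcr3, the receptor of Cxcl9 and Cxcl10, stood at 62.5, 58.9 and 75.6 FPKM in M-cDC1 against 2, 1.27 and 3.01 in M-cDC2 (4.46, SE 0.308), and Ccr9, a gut-homing receptor, at 5.28, 5.32 and 5.7 against 0.422, 0.522 and 0.8 (2.03). Ccr6, the receptor of Ccl20, stood at 0.0576, 0.0482 and 0.0785 against 35.4, 22.5 and 21.8 (-4.67) and the fractalkine receptor Cx3cr1 at 0, 0.0124 and 0.0708 against 7.42, 8.79 and 5.07 (-2.95). The receptor Cxcr3 and its ligand Cxcl9 were thus high in the same subset.

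Receptors for lipids and nucleotides numbered 9 higher and 11 lower of 31 under both scalings (29% and 35.5%, beside 12.7% and 25.4% of all genes as deposited and 17.5% and 18.2% after scaling). P2ry14, which binds nucleotide sugars, stood at 31.8, 31.9 and 26.4 FPKM against 0.329, 0.404 and 0.28 (4.53, SE 0.148). Gpr183 (Ebi2), the oxysterol receptor that positions cDC2 at the bridging channels of the spleen, stood at 2.28, 1.67 and 1.85 against 75.8, 66.8 and 73.4 (-4.64, SE 0.136). The prostaglandin E receptors parted, with Ptger2 at 4.39 against 0.128 (2.26) and Ptger3 at 0.172, 0.0295 and 0.024 against 21.4, 21.1 and 19.2 (-4.33), while Ptger4 was not called (0.16). Adenosine receptors parted as well, Adora3 toward M-cDC1 (1.97) and Adora2a and Adora2b toward M-cDC2 (-1.26 and -2.33).

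Of 15 integrin chains 6 were higher and 8 lower, median -0.55, beside 12.7% and 25.4% of all genes (7 and 6, -0.35, beside 17.5% and 18.2%, after scaling). Itgae (CD103) stood at 26.4, 23.8 and 38.1 FPKM against 0.232, 0.385 and 0.541 (4.43) and Itga8 at 12.7, 9.22 and 9.62 against 0.404, 0.179 and 0.133 (3.21). Itgam (CD11b) stood at 0.00886, 0.0891 and 0.0725 against 8.08, 8.87 and 10.3 (-3.25) and Itgb3 at 0, 0.0474 and 0.0386 against 7.94, 9.99 and 6.62 (-3.14). Itgb7, which pairs with Itgae, was lower in M-cDC1, at 130 against 189 (-0.55), although Itgae was higher, and the call for Itgb7 ended after scaling (adjusted p = 0.0662). Among 9 semaphorins and plexins 3 were higher and 5 lower, median -1.66 (-1.49). Sema4a, a costimulator of T cells, stood at 43.8, 34.5 and 45.5 against 5.97, 7.88 and 5.43 (2.51), and Sema4d, a ligand of Plxnb2 and Cd72, at 17.9, 18 and 22.7 against 88.1, 76.4 and 68.2 (-1.94).

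Receptors for growth factors and cytokines and the kinases below them were lower in M-cDC1 in the main. Of 34 receptors 3 were higher and 18 lower, median -0.61 (3 and 17, -0.44, after scaling). Csf1r, the receptor of macrophage colony-stimulating factor, stood at 2.45, 2.02 and 2.95 FPKM against 64.1, 67.8 and 64 (-4.26), Il21r at 3.72, 3.03 and 4.73 against 109.6, 87.6 and 81.1 (-4.28), and Il2rg, the common gamma chain that Il21r uses, at 15.7 against 264 (-3.99). Ifngr1, the binding chain of the interferon gamma receptor, was higher, at 525, 523 and 486 against 331, 375 and 373 (0.51, adjusted p = 0.000436), and so was the lambda interferon receptor Ifnlr1 (1.24), whereas the type I interferon receptor chain Ifnar2 was lower (-1.36) and Ifnar1 was not called (-0.16). Csf1r is itself among the monocyte markers whose sums are given above.

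In the JAK-STAT pathway 2 of 20 were higher and 13 lower, median -0.57 (3 and 11, -0.38, after scaling). Stat4, which relays Il12, stood at 0.0115, 0.0289 and 0.129 FPKM against 9, 14.1 and 12.6 (-3.59), and Jak2 at 15.7, 17.6 and 15.4 against 35.5, 45.9 and 53.6 (-1.4). Tyk2 was higher, at 45, 32.9 and 44 against 26.6, 21.4 and 25.5 (0.7, adjusted p = 0.00097).

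Genes of signalling through immunoreceptor motifs were called lower in part, with 4 of 21 Fc receptors and adaptors higher and 10 lower, median -0.74 (5 and 10, -0.54, after scaling). Fcer1g, the shared signalling chain, stood at 59.8, 62.3 and 50.3 FPKM against 978, 1216 and 1114 (-4.24, SE 0.112). The kinase Syk, which such chains recruit, stood at 10.9, 7.51 and 10.9 against 36.9, 43 and 37.2 (-1.91), and Ptpn6 (Shp-1), which inhibitory receptors recruit, at 118, 123 and 159.8 against 581, 618 and 584 (-2.16). Fcgrt, the neonatal Fc receptor, went the other way, at 107, 102 and 114 against 33.7, 31.8 and 37.8 (1.62). Of 18 protein tyrosine phosphatases 2 were higher, Ptpn7 (2.8) and Ptpn18 (1.1), and 11 lower, median -0.84 (-0.66), among them Ptpro, at 1.04, 0.791 and 1.59 against 30.8, 25.2 and 24.5 (-3.71), and Ptprc (CD45; -1.4). Of 14 MAP kinase phosphatases and Sprouty genes 1 was higher, Dusp3 (0.69), and 5 lower (7.14% and 35.7%, beside 12.7% and 25.4% of all genes), median -0.29 (-0.12), with Dusp5 at 6.45, 3.55 and 1.93 against 19.1, 27.8 and 18.3 (-2.27).

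Among cytoskeletal genes Myo1e, a myosin of class I, was lower in M-cDC1. Of 31 unconventional myosins and actin regulators 4 were higher and 18 lower, median -0.49 (4 and 13, -0.29, after scaling). It stood at 0, 0.00981 and 0.00799 FPKM in M-cDC1 against 10.4, 11.7 and 9.03 in M-cDC2 (-3.49), while Myo1c was not called (-0.03). Fscn1, the actin bundler of mature dendritic cells, stood at 2.93, 2.36 and 3.73 against 12.6, 12.1 and 13.4 (-1.79). Fmnl2, a formin, and Myo9a were higher in M-cDC1 (2.29 and 1.44).

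Genes of protein synthesis leaned toward M-cDC1 by small steps. Of 77 mitochondrial ribosomal proteins 23 were higher and 2 lower, median 0.19 (32 and 0, 0.37, after scaling), with Mrpl42 at 55.3, 69.7 and 54.7 FPKM against 21.9, 27.1 and 27.6 (1.2) and Mrps28 at 0.9. Of 50 translation factors 15 were higher and 5 lower, median 0.14 (21 and 2, 0.33, after scaling). Eif2b2, a subunit of the exchange factor of initiation, stood at 101, 95.7 and 99.9 against 29.7, 35.1 and 30.6 (1.61), and Eif4e3, a cap-binding protein, at 6.73, 4.8 and 6.72 against 20.1, 20.5 and 21 (-1.62).

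Of 30 enzymes of the TCA cycle and of fatty acid oxidation 6 were higher and 4 lower, median 0.05, beside 12.7% and 25.4% of all genes. After scaling 10 and 3 were called, median 0.23, beside 17.5% and 18.2%. Mdh2, mitochondrial malate dehydrogenase, stood apart at 132, 134 and 135 FPKM against 564, 631 and 584 (-2.14, SE 0.0808, adjusted p = 1.15e-10). Its neighbour in the cycle Fh1 was not called, and Cs passed after scaling only (adjusted p = 0.0169, 0.36). Acadl, which oxidises long-chain fatty acids, stood at 74.3, 83.9 and 85.1 against 42.7, 32.4 and 42.5 (1.04). Of 20 genes of cholesterol synthesis and uptake 2 were higher and 2 lower, median 0.02 (5 and 1, 0.18, after scaling), with Sqle at 0.74 and Mvd at -0.79.

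Lipid mediators and vitamin A showed single large differences in short lists. Of 12 eicosanoid genes 1 was higher, Tbxas1 (thromboxane synthase), at 6.08, 6.06 and 7.62 FPKM against 0.961, 0.326 and 0.448 (2.28), and 5 lower, median -0.35 (2 and 5, -0.24, after scaling). Ptgs2 (cyclooxygenase 2) stood at 0.243, 0.0122 and 0 against 13, 6 and 12.2 (-3.33) and Lta4h, which makes leukotriene B4, at 17, 17.7 and 19.9 against 69.2, 61.4 and 66.1 (-1.79). Of 11 retinoid genes 1 was higher, Rxra (1.08), and 5 lower, median -0.66 (-0.53). They were led by Tgm2, a transglutaminase induced by retinoic acid, at 0.676, 0.134 and 0.85 against 119, 91.6 and 103 (-6.11).

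In the remaining lists, amino acid catabolism had 1 of 8 genes higher, Ido1 (1.75), and 4 lower (1 and 2 after scaling), median -0.28 (-0.09). The Bcl2 family had 3 of 13 higher and 5 lower (5 and 2 after scaling), with the death promoter Bid at 48.7, 44.1 and 45.5 FPKM against 25.2, 22.1 and 22.8 (0.95) and the survival gene Bcl2a1b, one of several near-identical copies, at 43.2, 49.7 and 40.6 against 129.9, 162 and 157 (-1.72). Of 16 genes of histone H3 lysine 27 and DNA methylation 0 were higher and 4 lower under both scalings, Dnmt3a, Eed, Tet2 and Uhrf1, and the 25% lower is near the 25.4% of all genes as deposited (18.2% after scaling), with Dnmt3a, a de novo DNA methyltransferase, at 4.16, 2.53 and 4.38 against 15.2, 16.1 and 11.9 (-1.73). Ion channels had 6 of 29 higher and 11 lower, median -0.38, beside 12.7% and 25.4% of all genes (7 and 9, -0.20, beside 17.5% and 18.2%, after scaling). Trpm2, a calcium channel of oxidative stress, stood at 45.1, 38.9 and 54.9 against 11.5, 9.42 and 10.6 (2.03) and the potassium channel Kcnn4 at 15.8, 13.2 and 16.1 against 2.83, 2.4 and 2.59 (2.15).

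**Figure D3:**
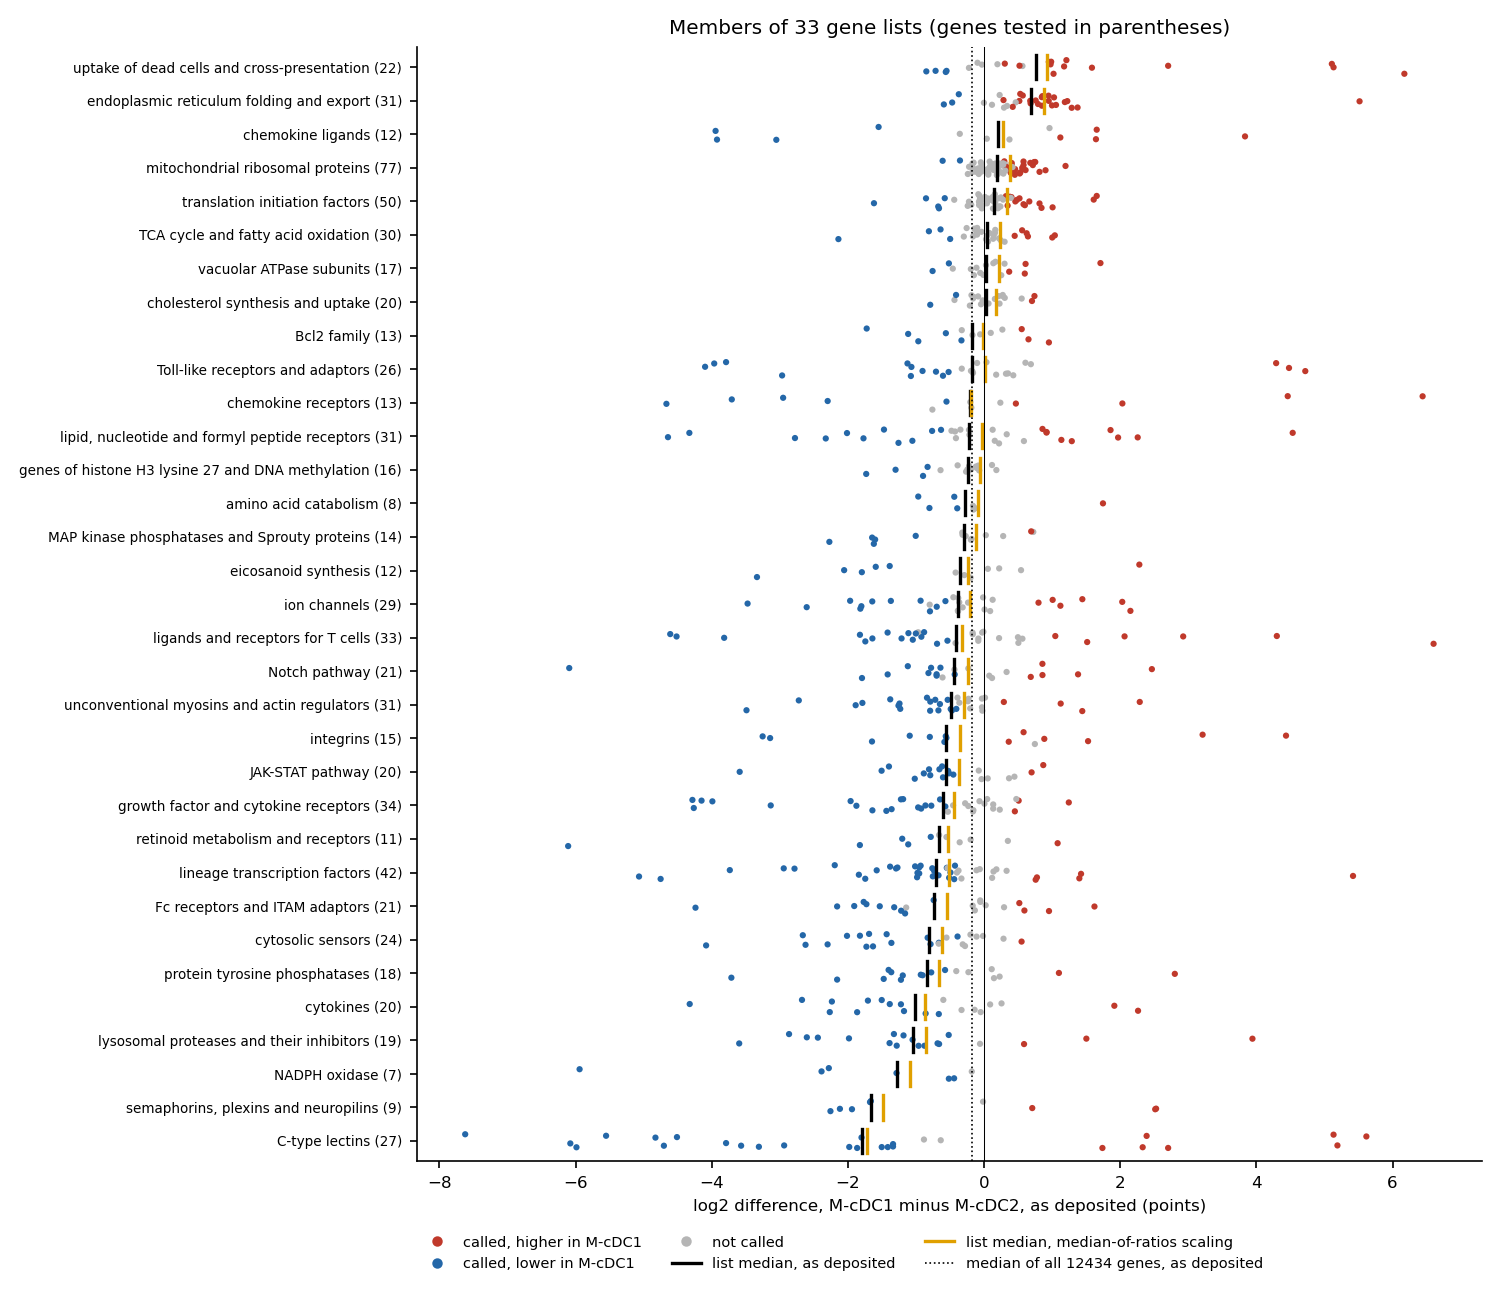
Log2 difference, M-cDC1 minus M-cDC2, of each tested member of 33 gene lists, 1 row per list, with red points called higher, blue points lower and grey points not called. Black bars are list medians as deposited and orange bars medians after median-of-ratios scaling, and the dotted line is the median of all 12434 genes (-0.18). Uptake and cross-presentation (0.76) and folding in the endoplasmic reticulum (0.68) stand highest, and C-type lectins lowest (-1.80).

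Some genes were well above 0 in 1 subset and near 0 in the other. With all 3 libraries of one subset at 5 FPKM or more and all 3 of the other under 0.5 FPKM, 21 genes belonged to M-cDC1 and 90 to M-cDC2 (28 and 85 after scaling). By the same rule in the L libraries there were 24 and 67, and 15 of the 21 and 49 of the 90 met it in both. Named after their values were seen, those of M-cDC1 included Gpr33, a chemoattractant receptor (27.7 against 0.0774 FPKM), Ptgis, the prostacyclin synthase (26.6 against 0.0745), Fzd1, a Wnt receptor (21.5 against 0.0370), Htr7, a serotonin receptor (11.0 against 0.156), and Met, the receptor of hepatocyte growth factor (7.85 against 0.193). Those of M-cDC2 included the metalloproteases Mmp9 (28.1 against 0.0306) and Mmp12 (27.8 against 0.298), Pltp, a phospholipid transfer protein (30.8 against 0.0366), Sucnr1, the succinate receptor (26.7 against 0.0682), and Siglece, an inhibitory receptor for sialic acid (43.9 against 0.0610). A value under the 3-read level given above does not show that a gene is absent, and reads without molecular identifiers are not independent molecules.

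Some genes called in the same direction were neighbours on the chromosome. There were 19 runs of 4 or more consecutive tested protein-coding genes that were all called in 1 direction by 1 or more, 16 of them lower and 3 higher in M-cDC1. Among all genes tested, 1399 were called lower and 600 higher by 1 or more (1129 and 789 after scaling). Runs of lower genes thus had more genes to draw on. The longest, with 7 genes, held Rasal1, Dtx1 and 5 Oas genes on chromosome 5 (120786877 to 121045584). Another on chromosome 19 (29229228 to 29448561) held Jak2, Insl6, Plgrkt, Cd274 and Pdcd1lg2, so that both Pd-1 ligands lay in 1 run, and that on chromosome 3 held Sirpb1a (-7.46), Sirpb1b (-5.07) and Sirpb1c (-4.32), copies so alike that reads may have been divided among them. Among the 3 higher runs, that of Ppef2, Naaa, Sdad1, Cxcl9 and Cxcl10 had 5 genes and lay on chromosome 5 (92374538 to 92496748). Another held Hba-a1 and Hba-a2, the globin genes counted above as erythroid markers. Without strand in the libraries, reads of overlapping genes on opposite strands cannot be told apart.

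Within other families 1 or 2 members ran against the rest. In the Cd209 row Cd209e was higher in M-cDC1 (4.88 against 0.813 FPKM, 1.74, adjusted p = 0.00097) and Cd209a, Cd209b, Cd209c and Cd209d were lower (-5.55, -3.31, -1.98 and -1.8). Among 8 Cd300 receptor genes Cd300c and Cd300e were higher (1.7 and 1.16) and 6 lower, led by Cd300ld (0.138 against 54.3 FPKM, -5.6). Of 8 Ms4a genes Ms4a1, which encodes Cd20 and is 1 of the B cell markers above, was higher (0.93) and 7 were lower, led by Ms4a4c (1.95 against 130 FPKM, -5.48). All these directions held after scaling.

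**Figure D4:**
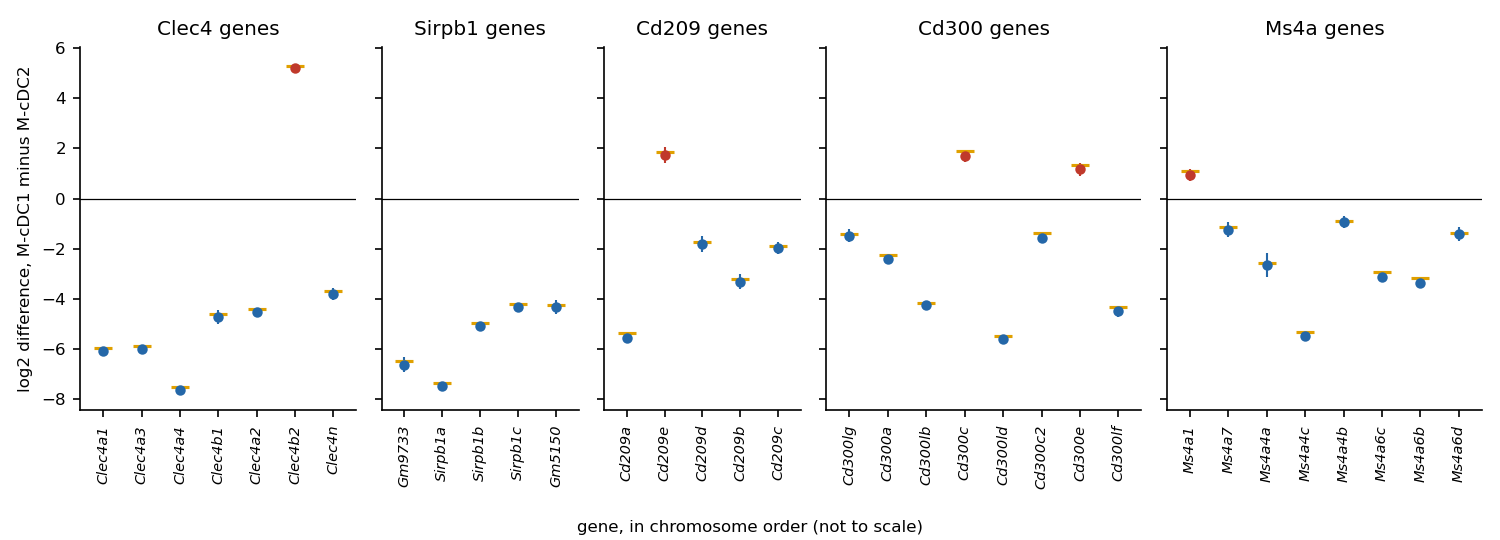
Log2 difference, M-cDC1 minus M-cDC2, with its standard error, for the tested genes of 5 families in chromosome order, red where called higher and blue where called lower, and an orange dash for the value after median-of-ratios scaling. The Sirpb1 panel holds 2 unnamed neighbours, Gm9733 and Gm5150, and Cd300lg lies apart from the other Cd300 genes on the same chromosome. Clec4b2 (5.19), Cd209e (1.74), Cd300c (1.70), Cd300e (1.16) and Ms4a1 (0.93) lie above 0, and the other 28 genes below it.

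The subset difference within M was set beside that within L, which uses other libraries. Across the 12434 genes, which are not independent, the log2 differences in M and in L correlated at 0.885 (0.889 after scaling). Within L 4913 genes were called (39.5%, 1605 or 12.9% higher and 3308 or 26.6% lower), and 1224 genes were higher and 2312 lower in both. Of the genes called in M, 346 higher and 849 lower ones were not called in L, which does not show that they differ there. The difference itself was tested as the interaction, M difference minus L difference, and 37 genes passed (0.298%). The value of cDC1 minus cDC2, which is not a level, was higher in M in 13 (0.105%) and lower in 24 (0.193%). After scaling 34 passed (0.273%), 12 higher (0.0965%) and 22 lower (0.177%). Of the genes tested, 210 reached 1 FPKM in no M library. A gene kept by the filter through 1 group alone is bound to lean toward an interaction. Among the 37, Ighv3-6, Igkv5-48 and Klra4 reached 1 FPKM in L-cDC2 alone, and Kcne3 and Ace in M-cDC2 alone. Of the 13 with a higher value in M, 6 are immunoglobulin segments. Gzma and Klra4, genes of cytotoxic and NK cells, are among the others, as is Fcrla, a B cell gene. The level of Fcrla was higher in cDC1 than in cDC2 in both M and L. The markers of B cells and of T and NK cells differed within L. The B cell markers summed to 579 to 903 FPKM in L-cDC1 and 845 to 3175 in L-cDC2, with 5 of 6 tested lower in L-cDC1 (median -1.44), and the T and NK cell markers to 10.7 to 17.7 and 33.9 to 96.7, with 5 of 6 lower (median -1.42). The monocyte and macrophage markers summed to 346 to 357 in L-cDC1 and 329 to 487 in L-cDC2, and Lyz2 is among the 24 with a lower value in M. The part of these cells in the 37 was not tested. Psap, the precursor of the saposins that help digest sphingolipids, stood at 3548, 4387 and 4286 FPKM in M-cDC1 against 915, 927 and 763 in M-cDC2 (2.23). The L-cDC1 level was close to that of M-cDC1, and the L-cDC2 level was 322 ± 54.4 (3.7 in L). The C-type lectin Clec4a3 differed by -5.99 in M and -4.11 in L, from 64.1 ± 4.33 FPKM in M-cDC2 and 19.6 ± 3.02 in L-cDC2. Ace, the angiotensin-converting enzyme, was at 4.92, 5.05 and 3.83 FPKM in M-cDC2 and under 0.07 in M-cDC1 (-2.43), and not called in L (-0.2). The filter kept Ace through M-cDC2 alone, so it was bound to lean toward an interaction. Olfm1, a secreted glycoprotein, and Il12b were higher in cDC1 in both, by 2.77 and 2.26 in M and by 4.57 and 4.09 in L. The number of genes that pass depends on single libraries: it was 10 without M-cDC2 replicate 2, 14 without M-cDC1 replicate 2, 21 without M-cDC1 replicate 3 and 24 without L-cDC1 replicate 2 or 3.

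**Figure D5:**
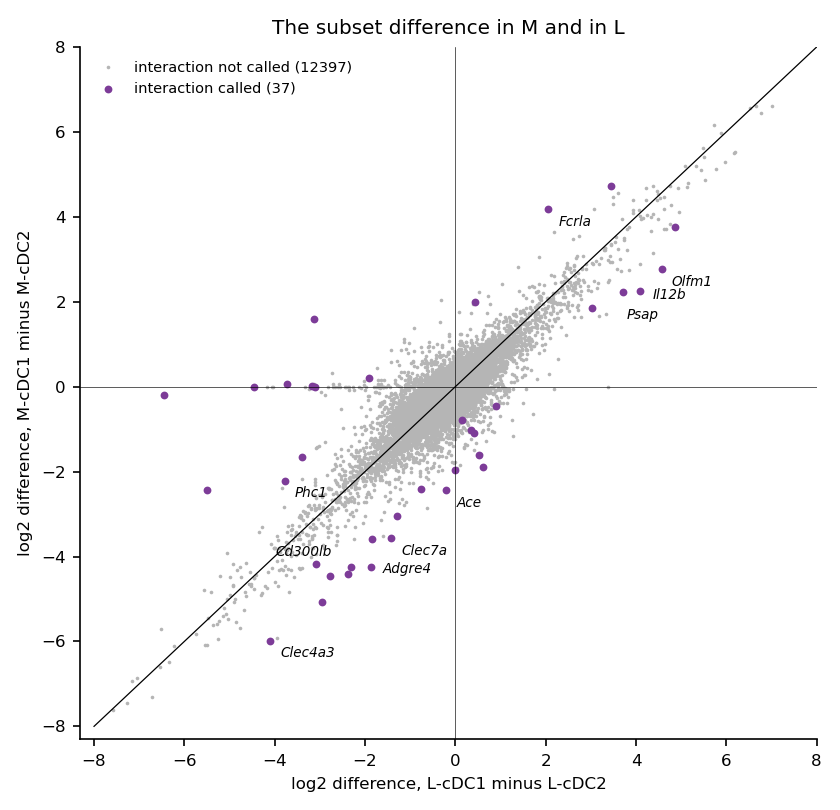
Each point is 1 of 12434 genes, with the log2 difference cDC1 minus cDC2 within L on the horizontal axis and within M on the vertical axis, and the diagonal marks equal differences. Purple points are the 37 genes that passed the test of the difference between M and L, 10 of them named. Most genes lie along the diagonal (correlation 0.885).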

How the data were processed

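The authors deposited a table of FPKM values per gene for the 12 libraries, made with the SMART-Seq HT and Nextera XT kits, which keep no strand, per the labels' protocols. The tools named, without roles, per the submitters' processing notes are STAR 2.7.9a, featureCounts 2.0.1, DESeq2 1.20.0 and, for trimming by their names, cutadapt 3.7, Trim Galore 0.6.7 and Trimmomatic 0.39. These notes give GRCh38 as the genome, although the gene symbols are of mouse. The mouse build is not given in the sources used here. Value times gene length gave whole reads within 0.01 read for every value, and these set the depths.

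Genes with 1 FPKM or more in 3 or more of the 12 libraries were kept. Their log2(FPKM + 1) values were fitted with limma 3.58.1 (trend on) in R 4.3.3, with 1 mean for each of 4 groups and 8 residual degrees of freedom, and p values were adjusted by Benjamini-Hochberg over all 12434 genes. The fit was tested on simulated reads with 200 genes changed between the M groups. It recovered 72% of the 2-fold and 98% of the 4-fold changes, with 10 false calls among 180. The simulation gave all genes the same dispersion and changed far fewer genes than the 4736 called here, so it does not stand for the reported comparison. Alternatives were median-of-ratios scaling, quantile normalization, other pseudocounts and filters, M or L libraries alone, a replicate block, leaving out each library and, added after seeing the data, limma-voom on the recovered reads.

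The members, lists and tests were chosen with earlier results of these data known. Genes were named by rule if called, with groups that do not overlap and a mean of 5 FPKM or more in the higher group, with segments of antigen receptors and unnamed models left out. They were the 12 largest differences each way, the 3 largest each way in each list and the 10 interaction genes with the smallest p, beside a few known subset genes and the cell type markers. Other members named were chosen after their values were seen. Promoters were matched by symbol to RefSeq, build GRCm38.p6, and searched and aligned with Biopython 1.88. A few genes and 1 list are not reported here.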

Additional observations from a re-analysis of the deposited data

Results flagged for a closer look

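For 10 genes the difference between the subsets departed between M and L by the interaction test (limma, adjusted p from 0.00581 to 0.0137), chosen as those with the smallest p outside immunoglobulin segments. Values are the M difference minus the L difference on the log2(FPKM + 1) scale, with mean FPKM in the order M-cDC1, M-cDC2, L-cDC1 and L-cDC2. Psap gave -1.476 (4073, 868, 4172 and 322), with lower levels in L-cDC2 than in M-cDC2 and cDC1 levels that were close. Il12b gave -1.834 (16.1, 2.57, 30.6 and 0.831). Olfm1 gave -1.792 (32.1, 3.82, 46.1 and 1.03). In these 3 genes cDC1 was higher in both M and L, and by less in M.

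A second set was low in cDC1 and higher in M-cDC2 than in L-cDC2. Ace gave -2.232 (0.0336, 4.6, 0.239 and 0.412), Cd300lb, an activating myeloid receptor, -1.927 (0.0103, 18.1, 0 and 4.04) and Clec4a3 -1.88 (0.0255, 64.1, 0.209 and 19.6). Of these, Ace reached 1 FPKM in M-cDC2 alone, so the filter kept it through that group and it was bound to lean toward an interaction. Clec7a gave -2.141 (1.46, 27.9, 1.93 and 6.89) and Adgre4, an adhesion receptor of macrophages, -2.373 (0.366, 24.5, 0.494 and 4.64). The monocyte and macrophage markers summed to 1028 to 1236 FPKM in M-cDC2 and 329 to 487 in L-cDC2. Lyz2 alone had means of 932 and 252 there and itself passed the interaction test, so the sums largely follow that gene. The part of these markers in the values of this second set was not tested.

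The other two went the opposite way. Phc1, a Polycomb protein, gave 1.567 (1.65, 11.4, 0.861 and 24.5). Fcrla, a B cell protein related to Fc receptors, gave 2.135 (28.6, 0.599, 32.6 and 6.84), with a higher level in cDC1 than in cDC2 in both M and L. The B cell markers stood higher in the L libraries, with sums of 845 to 3175 FPKM in L-cDC2 against 349 to 375 in M-cDC2, and 5 of 6 tested were lower in L-cDC1 than in L-cDC2 (median -1.44), against 1 of 6 lower in M. Their part in this value was not tested.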

How the results depend on the processing

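Between 3706 and 4756 genes were called within M over the alternatives to the reported 4736, and 3854 to 4852 on leaving out each library. The 3706 were called among the 7601 genes left by a filter of 5 FPKM, and without a filter 4126 were called among 28712. These 2 counts are over other totals than the 12434 genes of the reported fit, so they do not show a loss or gain of calls. Quantile normalization left 1967 genes lower in M-cDC1 in place of 3163, against 2253 higher in place of 1573, so that 53.4% of calls were higher. It also turned H2-Ab1, an MHC class II chain, to -0.3708 (adjusted p = 0.0112). Quantile normalization sets values by rank. By mean FPKM as deposited, H2-Ab1 ranked 4 in M-cDC1 (10500) and 2 in M-cDC2 (7742). The cause was not tested. Genes that differed between M and L, 37 as reported, numbered 10 with limma-voom on recovered reads, 21 with a pseudocount of 0.1 FPKM and 10 to 38 on leaving out each library. Of 232 named genes, 213 of them called, 10 lost their call with median-of-ratios scaling, 9 with quantile normalization, 10 without the filter, 5 with the M libraries alone, 2 with the pseudocount of 0.1 FPKM and 1 with limma-voom. Whether replicate numbers pair the samples could not be told from 3 libraries a group. Same-numbered M libraries deviated from their group means with correlations of 0.0739, 0.156 and -0.00171. M-cDC1 replicates 1 and 2 correlated best with their own number in M-cDC2, and replicate 3 with M-cDC2 replicate 1 (0.0885). With a replicate block 4754 genes were called, 4567 of them shared, and of the named genes only Nlrc5 lost its call (adjusted p = 0.0506). The planned edgeR test was not run, since the deposited values are not counts. Depth limits values under 0.122 to 0.189 FPKM on a gene of 1 kb.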
